A study of Mus musculus with 23 samples.

Results

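The 8 genes Psmb8, Psmb9, Psmb10, Tap1, Tap2, Tapbp, B2m and Nlrc5, which serve the immunoproteasome and the loading of peptides onto MHC class I molecules, were examined in mouse colon. They were taken by name from the 18194 genes that the arrays measured, and 14 of the 45101 probe sets on each array named 1 of them alone. Each gene is given as the log2 signal of its brightest probe set, judged by the mean of all 23 arrays, and signals of different probe sets are not compared with each other. All animals were BALB/c mice, and 4 groups of colons were profiled: 7 from Fn14 knockouts given TNBS, 5 from untreated Fn14 knockouts, 6 from wild types given TNBS and 5 from untreated wild types. Tnfrsf12a encodes Fn14, which binds the cytokine TWEAK, and TNBS, a hapten, provokes colitis if instilled into the rectum with ethanol. Treated mice received 0.2% TNBS for 6 weeks, at a volume raised over that time to 2.0 ul per g of body weight starting at 1.0 ul per g, and colons were taken 3 days after the last dose. The labels give no ages, do not describe how the knockout allele was made, and do not say whether untreated mice received the solvent, so a TNBS difference may include the ethanol and the injections. They number the samples of a group but do not tie each to its own mouse, so a p-value reflects only how far these samples spread, which may be technical.

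The proteasome degrades proteins inside cells, and in cells exposed to interferon its catalytic subunits are replaced by the immunoproteasome subunits, which changes the peptides that are released. The transporter encoded by Tap1 and Tap2 carries such peptides into the endoplasmic reticulum, where tapasin (Tapbp) holds the transporter next to class I molecules made of a heavy chain and beta-2-microglobulin (B2m). Nlrc5 is a regulator that switches on transcription of class I genes and of several genes of this pathway. In the intestine, class I molecules are carried by epithelial cells as well as by leukocytes.

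All 8 genes had their lowest group mean in untreated knockout colons, and 7 had their highest in wild-type colons with TNBS. With TNBS, 6 genes rose in the knockout (Psmb8, Psmb9, Psmb10, Tap1, B2m and Nlrc5), where 4.08% of all genes rose, and 4 of them (Psmb8, Psmb9, Tap1 and Nlrc5) rose in wild type, where 10.2% of all genes did. Knockout colons were lower than wild type in 3 genes with TNBS (Psmb8, Psmb9 and Tap2), against 6.72% of all genes, and in 5 without TNBS (Psmb8, Psmb9, Psmb10, Tap2 and B2m), against 1.91% of all genes. These calls rest on limma with Benjamini-Hochberg adjusted p under 0.05 over all genes. The test of whether the TNBS effect differs between genotypes passed for 0 of the 8, where 2% of all genes passed, and 1 (B2m) had an unadjusted p under 0.05.

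**Figure D1:**
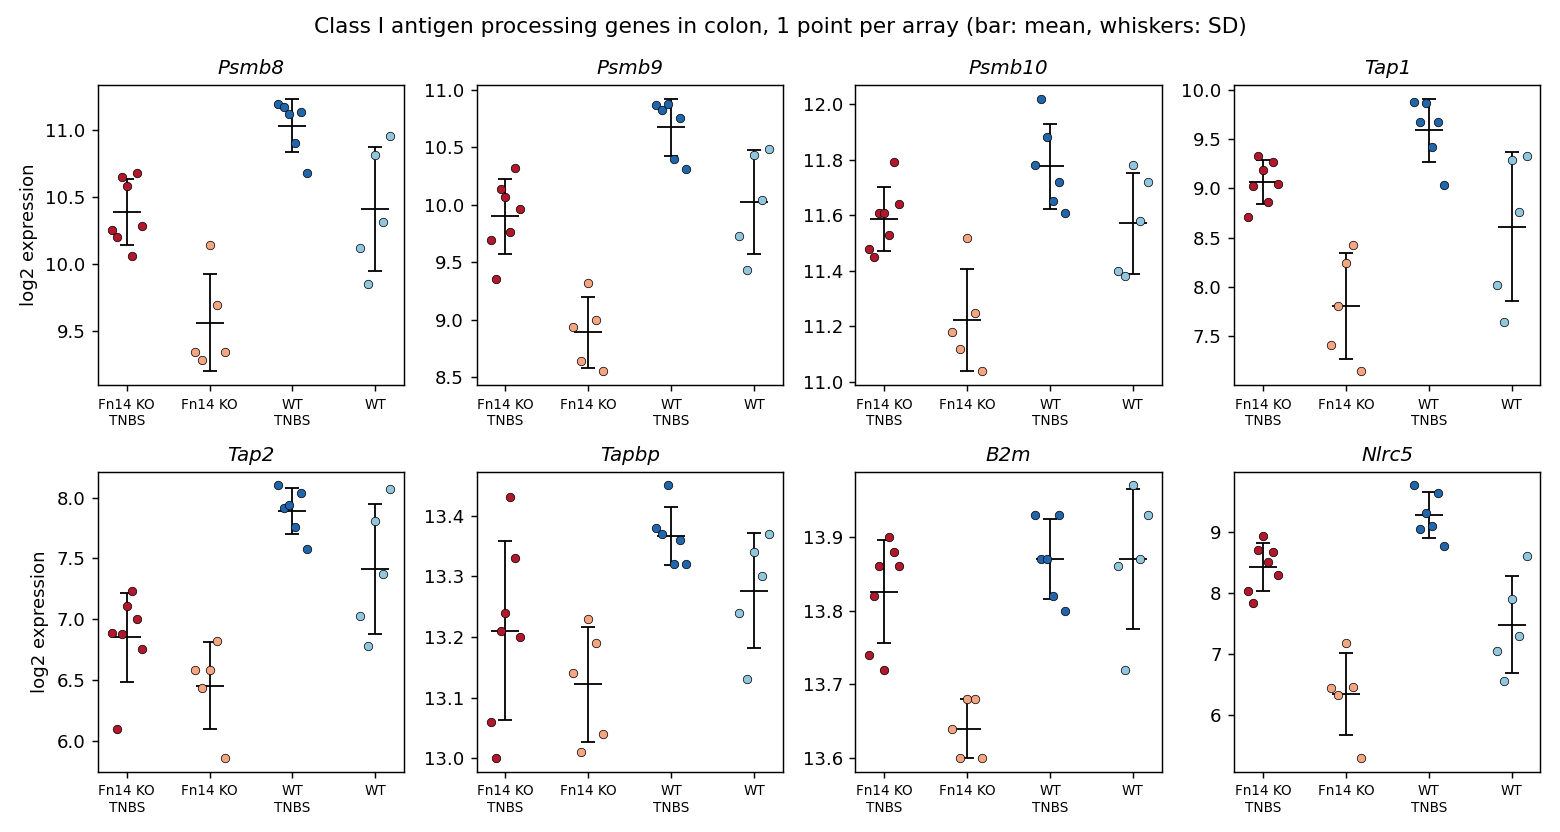
Log2 signal of each of the 8 genes (vertical axis, own scale per panel) on every array, by group on the horizontal axis; points are arrays, bars are means and whiskers are SD. Untreated knockout colons have the lowest mean in every panel, and in the Nlrc5 panel the arrays with TNBS stand clear of the untreated arrays in each genotype.

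Promoter sequences of 6 of the 8 genes were found in RefSeq (build GRCm38.p6), each covering 250 bases before to 50 bases after the start of the gene. Tap1 (chr17:34187306-34187605, plus strand) and Psmb9 (chr17:34187281-34187580, minus strand) lie head to head, and their windows share 275 bases, so 1 stretch of DNA is the promoter window of both a transporter and an immunoproteasome gene. B2m (chr2:122147437-122147736, plus strand) and Psmb8 (chr17:34197945-34198244, plus strand) are shown beside it because of the elements that their windows hold. Capitals mark matches to the motifs searched, which are named after the sequences.
Tap1 and Psmb9, Tap1 strand: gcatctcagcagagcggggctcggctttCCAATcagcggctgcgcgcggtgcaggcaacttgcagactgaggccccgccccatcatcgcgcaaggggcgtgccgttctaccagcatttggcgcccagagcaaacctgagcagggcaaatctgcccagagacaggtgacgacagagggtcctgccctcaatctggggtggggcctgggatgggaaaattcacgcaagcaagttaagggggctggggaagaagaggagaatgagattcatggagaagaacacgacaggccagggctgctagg
B2m: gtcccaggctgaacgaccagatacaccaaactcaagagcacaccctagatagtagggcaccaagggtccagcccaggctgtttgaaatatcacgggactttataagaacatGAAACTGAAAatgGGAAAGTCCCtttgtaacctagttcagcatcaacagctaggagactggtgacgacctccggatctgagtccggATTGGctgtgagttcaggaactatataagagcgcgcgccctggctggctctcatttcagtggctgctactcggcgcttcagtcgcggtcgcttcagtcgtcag
Psmb8: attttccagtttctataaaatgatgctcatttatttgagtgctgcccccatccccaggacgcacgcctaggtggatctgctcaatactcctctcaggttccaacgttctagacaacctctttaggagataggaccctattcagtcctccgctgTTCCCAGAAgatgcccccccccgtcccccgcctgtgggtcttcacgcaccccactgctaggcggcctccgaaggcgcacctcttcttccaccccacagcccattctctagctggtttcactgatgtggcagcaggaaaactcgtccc
Both strands were searched for the interferon response element core (TTTC and TTTC around any 2 bases), the STAT form TTCNNNGAA, the NF-kappaB form (GGG and TTTCC around any 2 bases), the cAMP response element TGACGTCA and the Y box CCAAT, and the matches in these windows do not overlap each other. Of 32851 RefSeq promoters of the same length, 3.44% held the first, 8.3% the STAT form, 1.63% the NF-kappaB form, 1.79% the cAMP response element and 37.4% the Y box. The B2m window held an interferon response core at -139 to -130 from the start, an NF-kappaB form at -126 to -117 and a Y box at -53 to -49, all on the minus strand. The Psmb8 window held a STAT form at -97 to -89, and the window of Tap1 and Psmb9 a single Y box, at -222 to -218 from the start of Tap1. Tapbp had 2 Y boxes, and Psmb10 matched none of the forms. A match is a description of letters and not evidence of binding.

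Tnfrsf12a checked the genotype labels: its log2 signal was 3.84 to 4.17 in knockout colons with TNBS and 4.03 to 4.17 in those without, against 6.77 to 8.25 in wild-type colons with TNBS and 5.86 to 7.16 in those without. Arrays of the same group correlated at r = 0.989 to 0.998, and no 2 arrays held identical values. Markers of colon epithelium were high on all arrays, and markers of leukocytes were present on all of them. Bulk tissue was measured, so fewer cells of a type and less RNA per cell cannot be told apart in any of the results.

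Nlrc5, the regulator, had the largest TNBS difference of the 8 genes in both genotypes. In the knockout, its signal was lowest at 7.84, median 8.51 and highest at 8.93 with TNBS, and 6.45, 6.34, 7.19, 6.47 and 5.30 without. In wild type, it was lowest at 8.77, median 9.21 and highest at 9.76 with TNBS, and 7.05, 6.56, 7.90, 7.29 and 8.61 without. Every array with TNBS was above every untreated array of its genotype, and wild-type replicate 5 was the high untreated array. The log2 difference was 2.07 ± 0.32 (SE, 4.2-fold, adjusted p = 0.00068, limma) in the knockout and 1.79 ± 0.34 (3.46-fold, adjusted p = 0.001) in wild type. Between genotypes, Nlrc5 did not pass: knockout minus wild type was -0.85 ± 0.31 with TNBS (adjusted p = 0.089) and -1.13 ± 0.35 without (adjusted p = 0.069). The untreated difference passed when knockout replicate 3 was left out (-1.34, adjusted p = 0.041) or wild-type replicate 2 (-1.36, adjusted p = 0.035), and the difference with TNBS passed with only the 2 groups fitted (-0.85, adjusted p = 0.031).

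Psmb8 encodes the immunoproteasome subunit that replaces Psmb5. Its signal in knockout colons was lowest at 10.06, median 10.28 and highest at 10.68 with TNBS, and 9.34, 9.28, 10.14, 9.69 and 9.34 without. In wild type, it was lowest at 10.68, median 11.12 and highest at 11.19 with TNBS, and 10.12, 9.85, 10.81, 10.31 and 10.95 without. The knockout arrays with TNBS lay within the range of the untreated wild-type arrays, and groups next to each other in their means overlapped. Psmb8 rose with TNBS by 0.83 ± 0.18 in the knockout (adjusted p = 0.0088, limma) and by 0.62 ± 0.19 in wild type (adjusted p = 0.03). It was lower in the knockout by -0.65 ± 0.18 with TNBS (adjusted p = 0.023) and by -0.85 ± 0.20 without (adjusted p = 0.019). When only the 2 groups compared were fitted, the untreated genotype call (-0.85, adjusted p = 0.13) and the wild-type TNBS call (0.62, adjusted p = 0.075) were lost.

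Psmb9, whose product replaces Psmb6, followed the same order of groups. In the knockout, its signal was lowest at 9.35, median 9.96 and highest at 10.32 with TNBS, and 8.94, 8.64, 9.32, 9.0 and 8.55 without. Wild-type arrays were lowest at 10.31, median 10.78 and highest at 10.88 with TNBS, and 9.73, 9.43, 10.43, 10.04 and 10.48 without. Every untreated knockout array was below every array of the 3 other groups. Psmb9 rose with TNBS by 1.01 ± 0.19 in the knockout (2.01-fold, adjusted p = 0.0035, limma) and by 0.65 ± 0.20 in wild type (adjusted p = 0.031). Knockout minus wild type was -0.77 ± 0.18 with TNBS (adjusted p = 0.01) and -1.13 ± 0.21 without (2.19-fold lower, adjusted p = 0.0041). Fitting only the 2 groups ended the untreated genotype call (-1.13, adjusted p = 0.06) and the wild-type TNBS call (0.65, adjusted p = 0.073).

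Psmb10, whose product replaces Psmb7, changed by less. Its signal in the knockout was lowest at 11.45, median 11.61 and highest at 11.79 with TNBS, and 11.18, 11.12, 11.52, 11.25 and 11.04 without. The wild-type signal was lowest at 11.61, median 11.75 and highest at 12.02 with TNBS, and 11.40, 11.38, 11.78, 11.58 and 11.72 without. Of the 5 untreated knockout arrays, 4 lay below every array of the other groups, and replicate 3 lay within the range of the knockout with TNBS. Psmb10 rose in the knockout with TNBS by 0.37 ± 0.09 (adjusted p = 0.016, limma), and was 0.20 ± 0.09 higher in wild type, which did not pass (adjusted p = 0.16). Knockout minus wild type was -0.19 ± 0.09 with TNBS (adjusted p = 0.19) and -0.35 ± 0.10 without (adjusted p = 0.044), and the untreated call was lost with only the 2 groups fitted (-0.35, adjusted p = 0.16).

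In the single-array checks of the 3 subunits, the wild-type TNBS calls of Psmb8 and Psmb9 were both lost without wild-type replicate 1, 2 or 4, or without wild-type TNBS replicate 1, 2, 3 or 5. Psmb8 was then 0.48 to 0.61, at adjusted p of 0.053 to 0.099, and Psmb9 0.50 to 0.65, at 0.055 to 0.10. The untreated genotype difference of Psmb10 was lost without wild-type replicate 3, 4 or 5 or knockout replicate 1, 2, 4 or 5, at -0.36 to -0.30 and adjusted p of 0.069 to 0.10. That of Psmb8 was lost without wild-type replicate 5 (-0.72, adjusted p = 0.051), and its difference with TNBS without wild-type TNBS replicate 1 (-0.61, adjusted p = 0.051).

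Tap1, a subunit of the peptide transporter, had the second largest TNBS differences. In the knockout, its signal was lowest at 8.71, median 9.04 and highest at 9.33 with TNBS, and 7.41, 7.80, 8.24, 8.42 and 7.14 without. In wild type, it was lowest at 9.03, median 9.67 and highest at 9.88 with TNBS, and 8.02, 7.64, 9.29, 8.76 and 9.33 without. The knockout groups did not overlap, while wild-type replicates 3 and 5 without TNBS lay above the lowest wild-type array with TNBS. Tap1 rose with TNBS by 1.26 ± 0.27 in the knockout (2.39-fold, adjusted p = 0.0076, limma) and by 0.98 ± 0.28 in wild type (adjusted p = 0.022). The wild-type call was lost without wild-type replicate 1 (0.84, adjusted p = 0.072) or 2 (0.74, adjusted p = 0.073), and with only the 2 groups fitted (0.98, adjusted p = 0.084). Knockout minus wild type was -0.53 ± 0.26 with TNBS (adjusted p = 0.23) and -0.80 ± 0.30 without (adjusted p = 0.13). Without wild-type replicate 2 the untreated difference was -1.05 (adjusted p = 0.042).

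Tap2, the other transporter subunit, passed between genotypes and did not pass for TNBS. Its signal in the knockout was lowest at 6.10, median 6.89 and highest at 7.23 with TNBS, and 6.58, 6.44, 6.58, 6.82 and 5.86 without. Wild-type colons were lowest at 7.58, median 7.93 and highest at 8.10 with TNBS, and 7.03, 6.78, 7.81, 7.37 and 8.07 without. All 7 knockout arrays with TNBS were below all 6 wild-type arrays with TNBS. Knockout minus wild type was -1.04 ± 0.20 with TNBS (2.05-fold lower, adjusted p = 0.0029, limma) and -0.96 ± 0.23 without (adjusted p = 0.023). The untreated call was lost without wild-type replicate 3 (-0.86, adjusted p = 0.052) or 5 (-0.79, adjusted p = 0.06) or knockout replicate 5 (-0.81, adjusted p = 0.052), and with only the 2 groups fitted (-0.96, adjusted p = 0.13). With TNBS, Tap2 was 0.40 ± 0.22 higher in the knockout (adjusted p = 0.30) and 0.48 ± 0.22 higher in wild type (adjusted p = 0.17), and neither passed.

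Tapbp encodes tapasin, which bridges the transporter and class I molecules, and no contrast passed for it. Its group means were 13.21 ± 0.15 in the knockout with TNBS (SD, n = 7), 13.12 ± 0.10 in the knockout without (n = 5), 13.37 ± 0.05 in wild type with TNBS (n = 6) and 13.28 ± 0.09 in wild type without (n = 5). The TNBS difference was 0.09 ± 0.06 in the knockout (adjusted p = 0.47, limma) and 0.09 ± 0.06 in wild type (adjusted p = 0.41). Knockout minus wild type was -0.16 ± 0.06 with TNBS (adjusted p = 0.10) and -0.15 ± 0.07 without (adjusted p = 0.21). Leaving out knockout TNBS replicate 5, the highest array of its group, gave -0.19 with TNBS (adjusted p = 0.028). A dimmer second probe set of Tapbp, with a mean of 4.51, stood at -0.43 ± 0.10 in knockout minus wild type without TNBS. Its adjusted p was 0.025 in limma over all single-gene probe sets. For TNBS in wild type it stood at -0.25 ± 0.10 (adjusted p = 0.096), opposite in sign to the first probe set.

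B2m, the light chain of class I molecules, gave small differences with little spread. Its signal in the knockout was lowest at 13.72, median 13.86 and highest at 13.90 with TNBS, and 13.64, 13.60, 13.68, 13.68 and 13.60 without. In wild type, it was lowest at 13.80, median 13.87 and highest at 13.93 with TNBS, and 13.86, 13.72, 13.97, 13.87 and 13.93 without. The 5 untreated knockout arrays lay below every array of the other groups, which overlapped one another. B2m rose with TNBS in the knockout by 0.19 ± 0.04 (adjusted p = 0.006, limma), and in wild type the difference was 0.00 ± 0.04 (95% interval -0.08 to 0.08, adjusted p = 1). Without TNBS it was lower in the knockout by -0.23 ± 0.04 (adjusted p = 0.0037), and with TNBS the difference was -0.04 ± 0.04 (adjusted p = 0.55). Its second probe set rose with TNBS in the knockout by 0.31 ± 0.05 (adjusted p = 0.00085) and was lower in untreated knockout than untreated wild type by -0.36 ± 0.05 (adjusted p = 7e-04).

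**Figure D2:**
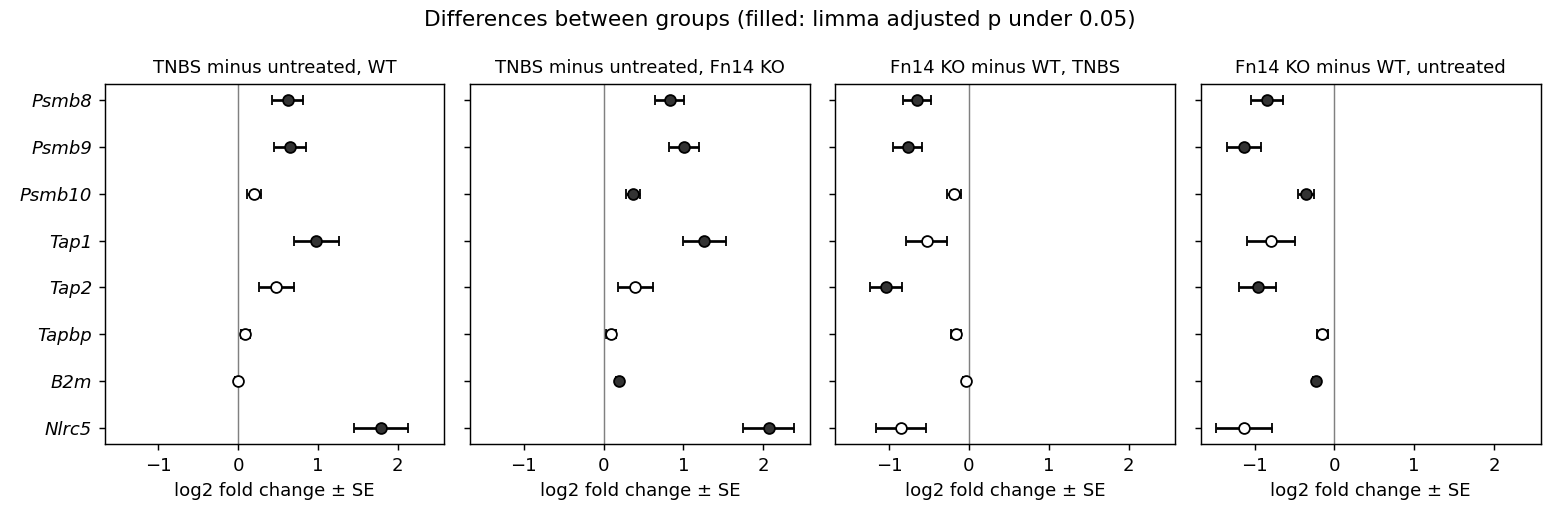
Log2 differences between groups (horizontal axis, points with SE) for the 8 genes, with 1 panel per comparison; filled points passed limma's adjusted p under 0.05. Differences with TNBS are largest for Nlrc5 and Tap1, and all 8 points lie below 0 in both panels of knockout minus wild type.

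Set against all genes, the counts stood as follows. Beside the genes that rose with TNBS in the knockout, 4.47% of all genes fell, so that 8.55% were called in either direction, and 0 of the 8 fell. In wild type 6.27% of all genes fell and 16.5% were called in either direction, and again 0 of the 8 fell. The median difference of the 8 genes was 0.61 in the knockout and 0.55 in wild type, and that of all genes 0.00 in both. In the knockout, 4 genes (Psmb9, Tap1, B2m and Nlrc5) had TNBS arrays all above untreated arrays, where 1.97% of all genes did and 1.9% had them all below. In wild type, only Nlrc5 of the 8 did so, where 6.99% of all genes did and 3.15% had them all below.

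Between genotypes, all 8 differences were negative with and without TNBS. With TNBS, 3.73% of all genes were higher in the knockout and 10.5% were called in either direction, and 0 of the 8 were called higher. Without TNBS, 2.92% of all genes were higher and 4.83% were called in either direction, and again 0 of the 8 were called higher. The median of the 8 genes was -0.59 with TNBS and -0.83 without, and that of all genes 0.00 in both. Knockout arrays were all below wild-type arrays for Tap2 with TNBS, where 2.68% of all genes were so placed and 0.956% were all above, and for Psmb9 and B2m without TNBS, where 2.18% were so placed and 3.39% were all above. The 2 genotype comparisons share no arrays with each other, but each shares its arrays with the TNBS comparisons, so the low untreated knockout group enters both its TNBS differences and its genotype differences.

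The difference of TNBS effects, knockout minus wild type, passed for 0 of 8 genes with limma, where 2% of all genes passed, 0.621% higher and 1.37% lower. At an unadjusted limma p under 0.05 there was 1, B2m, at 0.19 ± 0.06 (adjusted p = 0.088). The second probe set of B2m gave 0.32 ± 0.07 (adjusted p = 0.024 over all single-gene probe sets), and the first passed without wild-type replicate 2 (0.22, adjusted p = 0.023). The 95% intervals were -0.69 to 1.26 for Nlrc5, -0.55 to 1.10 for Tap1, -0.73 to 0.57 for Tap2, -0.22 to 0.94 for Psmb9 and -0.35 to 0.76 for Psmb8. They were narrower for Psmb10, at -0.11 to 0.44, and for Tapbp, at -0.19 to 0.18. The median over the 8 genes was 0.20, beside 0.00 over all genes.

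The order of the group means was untreated knockout, treated knockout, untreated wild type, treated wild type from low to high for Psmb8, Psmb9, Tap2 and Tapbp. For Psmb10, Tap1 and Nlrc5 the middle pair was turned round, with treated knockout above untreated wild type. For B2m untreated wild type was highest, at a mean of 13.87 that equals that of treated wild type after rounding. Groups next to each other in these orders overlapped in their arrays, except untreated and treated knockout for Psmb9 and B2m.

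Each immunoproteasome subunit takes the place of a constitutive one in the particle, and the constitutive genes gave no call. Psmb5, Psmb6 and Psmb7 passed in 0 of the 4 two-group comparisons with limma, where 4.83% to 16.5% of all genes were called. Their log2 differences lay between -0.13 and 0.09, and 1 of these 12 tests had an unadjusted p under 0.05 (Psmb5 in knockout minus wild type with TNBS). The log2 difference of each immunoproteasome gene minus its constitutive partner was therefore taken within each array. Its level has no meaning across probe sets, and only its change between groups is read. Two-sided exact permutation tests were run for 3 pairs in 4 comparisons and adjusted over these 12 tests, of which 11 passed. These tests reuse the arrays and values of Psmb8, Psmb9 and Psmb10, so they are not separate support for the limma calls. They are adjusted over 12 tests and not over all genes, and the share of other gene pairs that would pass was not computed.

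Psmb9 minus Psmb6 gave the largest changes of the 3 pairs. In the knockout the difference was lowest at -3.38, median -2.63 and highest at -2.43 with TNBS, and without TNBS it was lowest at -4.07, median -3.80 and highest at -3.28. The wild-type difference was lowest at -2.35, median -1.835 and highest at -1.62 with TNBS, and lowest at -2.96, median -2.57 and highest at -2.13 without. All knockout arrays with TNBS lay below all wild-type arrays with TNBS, and the untreated genotypes did not overlap either. The change was -0.83 between genotypes with TNBS (exact permutation p = 0.000583, the smallest this design allows, adjusted p = 0.007) and -1.22 without (p = 0.00794, also the smallest allowed, adjusted p = 0.016). With TNBS it rose by 0.98 in the knockout (exact permutation, adjusted p = 0.015) and by 0.58 in wild type (adjusted p = 0.026).

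Psmb8 minus Psmb5 averaged -1.07 ± 0.21 in the knockout with TNBS and -1.97 ± 0.41 without, and -0.55 ± 0.30 in wild type with TNBS and -1.11 ± 0.39 without (SD). It rose with TNBS by 0.90 in the knockout (exact permutation, adjusted p = 0.0076) and by 0.56 in wild type (adjusted p = 0.038). It was lower in the knockout by -0.52 with TNBS (adjusted p = 0.016) and by -0.86 without (adjusted p = 0.025). Psmb10 minus Psmb7 rose by 0.34 in the knockout with TNBS (exact permutation, adjusted p = 0.025), and its 0.20 in wild type did not pass (adjusted p = 0.058). It was lower in the knockout by -0.27 with TNBS (adjusted p = 0.016) and by -0.42 without (adjusted p = 0.029). The wild-type TNBS call of Psmb8 minus Psmb5 was lost without wild-type replicate 1, 2 or 4 or wild-type TNBS replicate 1, 2, 3, 4 or 5, at 0.44 to 0.60 and adjusted p of 0.052 to 0.088. That of Psmb9 minus Psmb6 was lost without wild-type replicate 2 or wild-type TNBS replicate 1, 2, 3 or 5, at 0.47 to 0.57 and adjusted p of 0.052 to 0.063. Psmb10 minus Psmb7 passed in wild type without wild-type replicate 3 or 5 or wild-type TNBS replicate 6, at 0.22 to 0.24 and adjusted p of 0.034 to 0.048. Psmb10 minus Psmb7 in the knockout lost its call without knockout replicate 2 (0.30) or 5 (0.28), each at adjusted p = 0.056.

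**Figure D3:**
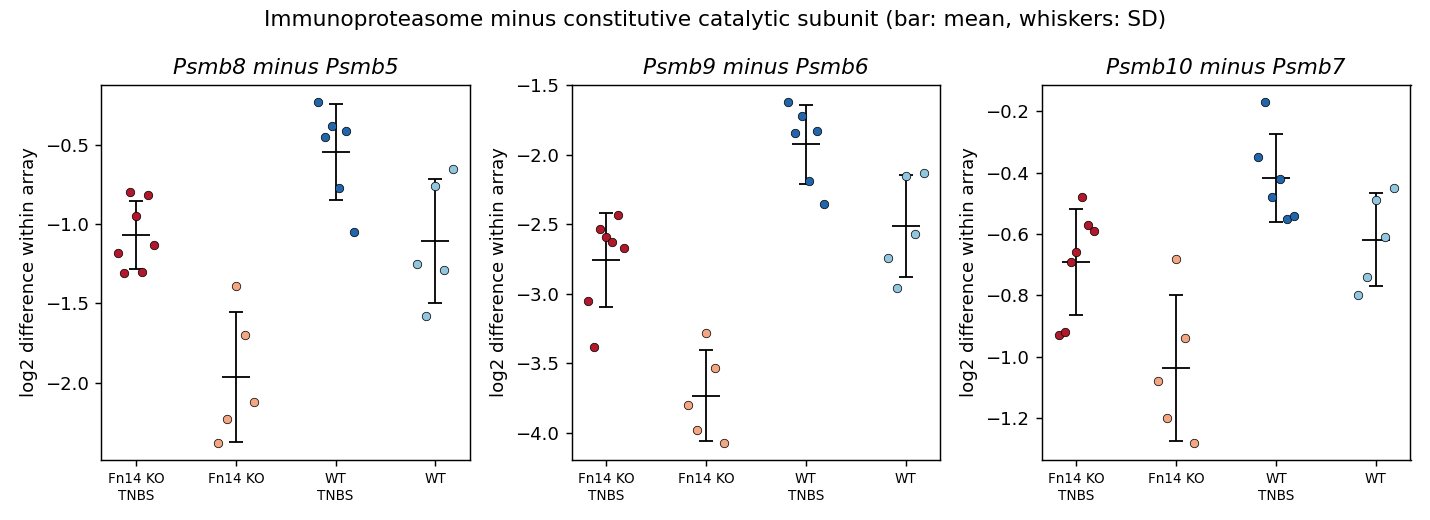
Log2 difference between an immunoproteasome gene and its constitutive partner within each array (vertical axis) by group (horizontal axis); points are arrays, bars are means and whiskers are SD. In the panel of Psmb9 minus Psmb6 the knockout arrays with TNBS, at most -2.43, lie below the wild-type arrays with TNBS, at least -2.35.

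Few other proteasome genes passed. Over all genes, 8.55% were called for TNBS in the knockout and 16.5% in wild type. Between genotypes, 10.5% were called with TNBS and 4.83% without. Of 11 other subunits of the 20S core, 0 passed in the 4 two-group comparisons with limma (7 of 44 tests at an unadjusted p under 0.05), and the log2 differences lay between -0.20 and 0.15. Of 17 measured subunits of the 19S regulator, which recognises tagged proteins, 1 passed in 1 contrast: the ATPase gene Psmc1 rose in wild type with TNBS by 0.15 ± 0.05 (adjusted p = 0.048). Among 8 proteasome activators and assembly factors, 4 of 32 tests passed. Psme1, which encodes a subunit of the interferon-inducible PA28 activator, passed in 3 comparisons, each in the direction of the immunoproteasome genes. Psme1 rose with TNBS by 0.24 ± 0.05 in the knockout (adjusted p = 0.011) and by 0.18 ± 0.06 in wild type (adjusted p = 0.038), and was lower in untreated knockout than untreated wild type by -0.21 ± 0.06 (adjusted p = 0.046). Psme4, the gene of the PA200 activator, stood at -0.04 ± 0.04 with TNBS in the knockout (adjusted p = 0.76) and rose in wild type by 0.23 ± 0.04 (adjusted p = 0.0014), and the difference between those TNBS effects passed (-0.27 ± 0.06, adjusted p = 0.031).

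Genes for partners that trim and load peptides were called most often for TNBS in wild type, the comparison with the most calls over all genes too. Of 12 measured, 1 rose with TNBS in the knockout (Tapbpl), where 8.55% of all genes were called in either direction. In wild type 5 rose (Tapbpl, Lap3, Erap1, Sec61a1 and Blmh) and 1 fell (Npepps), where 16.5% of all genes were called, and of the 12 differences between these effects only that of Npepps passed. Tapbpl, a relative of tapasin that edits the bound peptides, rose by 0.40 ± 0.11 in the knockout (adjusted p = 0.031, limma) and by 0.56 ± 0.12 in wild type (adjusted p = 0.0022). Lap3 and Erap1, which encode aminopeptidases that shorten peptides in the cytosol and in the endoplasmic reticulum, did not pass for TNBS in the knockout, at 0.20 ± 0.13 for Lap3 (adjusted p = 0.40) and 0.13 ± 0.11 for Erap1 (adjusted p = 0.56). In wild type, Lap3 rose by 0.47 ± 0.14 (adjusted p = 0.022) and Erap1 by 0.36 ± 0.11 (adjusted p = 0.035). Npepps, another cytosolic aminopeptidase gene, was 0.08 higher in the knockout with TNBS (adjusted p = 0.36) and fell in wild type by -0.25 ± 0.05 (adjusted p = 0.00096). Its difference of TNBS effects was 0.33 ± 0.06 (adjusted p = 0.014). Between genotypes with TNBS, Npepps was higher in the knockout by 0.40 ± 0.04 (adjusted p = 1e-05) and Sec61a1, which encodes a channel subunit of the endoplasmic reticulum, was lower by -0.26 ± 0.05 (adjusted p = 0.0019), and 0 of 12 passed without TNBS. Over all genes, 10.5% were called between genotypes with TNBS and 4.83% without. The chaperones of the loading complex, Calr, Canx and Pdia3, did not pass in any of the 4 two-group comparisons.

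Class I heavy chain genes were measured for 9 of 17 listed, and related genes of this family can cross-hybridise, so their values are uncertain. The classical genes H2-K1 and H2-D1 kept to small differences like those of B2m. H2-K1 rose with TNBS in the knockout by 0.17 ± 0.05 (adjusted p = 0.045, limma) and was lower in the knockout by -0.18 ± 0.05 with TNBS (adjusted p = 0.023) and by -0.24 ± 0.06 without (adjusted p = 0.021). H2-D1 rose with TNBS in the knockout by 0.20 ± 0.05 (adjusted p = 0.011) and was lower in untreated knockout by -0.23 ± 0.05 (adjusted p = 0.012). In wild type, both were higher with TNBS, by 0.12 and 0.10, and did not pass (adjusted p = 0.16 each). Over the list, 3 rose with TNBS in the knockout (H2-K1, H2-D1 and H2-T24), where 4.08% of all genes rose. In wild type 1 rose (H2-Q10), where 10.2% of all genes did. Between genotypes with TNBS, the knockout had 2 higher (H2-Q2 and H2-T3) and 2 lower (H2-K1 and H2-M3). Without TNBS, 1 was higher (H2-Q2) and 4 were lower (H2-K1, H2-D1, H2-T24 and H2-M3). Over all genes, 3.73% were higher and 6.72% lower with TNBS, and 2.92% were higher and 1.91% lower without. H2-Q2 stood at a mean of 6.90 in the knockout with TNBS against 2.34 in wild type with TNBS, and 6.77 in the knockout without TNBS against 2.54 in wild type without (adjusted p = 0.0027 and 0.021).

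Interferon-gamma is the classical inducer of these genes, and its own transcript was near the lowest deposited value of 2.17 in every group, with means of 2.17 in both knockout groups, 2.28 in wild type with TNBS and 2.18 in wild type without. With TNBS, 4.08% of all genes rose in the knockout and 10.2% in wild type. Of 16 measured genes of its signalling path and of class I regulation, 2 rose with TNBS in the knockout and 4 in wild type. Those of the knockout were Irf9 (1.11 ± 0.16, adjusted p = 0.00026, limma) and Stat2 (1.10 ± 0.27, adjusted p = 0.016), which encode 2 parts of a transcription factor complex of type I interferon signalling. In wild type Irf9 was 0.00 ± 0.16 and Stat2 0.04 ± 0.28 (adjusted p = 1 each). The difference of TNBS effects passed for Irf9 (1.11 ± 0.23, adjusted p = 0.015) and missed for Stat2 (1.06 ± 0.39, adjusted p = 0.17). In the untreated state both were lower in the knockout, Irf9 by -1.17 ± 0.17 (adjusted p = 0.00074) and Stat2 by -1.54 ± 0.29 (adjusted p = 0.0052). In wild type with TNBS, Ciita, the class II counterpart of Nlrc5, rose by 1.58 ± 0.36 (adjusted p = 0.0044), the kinase gene Jak2 by 0.34 ± 0.05 (adjusted p = 7.8e-05) and Irf8 by 0.40 ± 0.11 (adjusted p = 0.012), and the other gene called was Rela. Between genotypes with TNBS, the receptor gene Ifngr2 was higher in the knockout by 0.40 ± 0.11 (adjusted p = 0.024), and no other gene of this list passed. Over all genes, 10.5% were called in that comparison. Irf1, an activator of many of these promoters, passed in none of the 4 comparisons and was 0.05 higher with TNBS in the knockout and 0.27 higher in wild type (adjusted p = 0.99 and 0.13).

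Many other targets of interferon-gamma rose with TNBS. Of 15 measured, 12 rose with TNBS in the knockout (median 1.10), where 4.08% of all genes rose. In wild type 8 rose (median 0.90), where 10.2% of all genes did. Knockout minus wild type had 4 lower with TNBS (median -0.54), against 6.72% of all genes. Without TNBS 6 were lower (median -0.95), against 1.91% of all genes. The GTPase genes Gbp3, Igtp, Irgm1 and Irgm2 were among those lower in untreated knockout, by -1.81 ± 0.32, -1.83 ± 0.40, -1.12 ± 0.26 and -1.40 ± 0.33 (adjusted p = 0.0031, 0.013, 0.017 and 0.018, limma). With TNBS, their differences between genotypes were -0.37, -0.41, -0.33 and -0.19 and did not pass. Cxcl9, a chemokine that attracts T cells, was lower in the knockout by -1.17 ± 0.32 with TNBS (adjusted p = 0.024) and by -1.75 ± 0.36 without (adjusted p = 0.0096).

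The 8 genes varied together among arrays of the same group. After each group mean was subtracted, the 28 pairs of the 8 genes correlated over 23 arrays at r = 0.54 to 0.91, with a median of 0.72 and the highest for Psmb8 and Psmb9. Without the 2 arrays farthest from the middle, wild-type replicate 2 and knockout replicate 5, the median was 0.63. All genes share the arrays, so differences in RNA or in tissue make-up between arrays enter every pair. The genes above the median level that followed the mean of the standardised 8 genes most closely were Gbp6 (r = 0.97), Irgm2 (0.93), Igtp (0.93), Iigp1 (0.91), Ifi44l (0.91), Irgm1 (0.90), Gbp3 (0.89) and Dtx3l (0.89), and without those 2 arrays r was 0.87 to 0.96. Spearman's rho over the same 23 arrays was 0.86 to 0.97.

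Marker counts are to be read beside all genes, of which 4.08% rose with TNBS in the knockout and 10.2% in wild type. Of all genes, 6.72% were lower and 3.73% higher in the knockout with TNBS, and 1.91% were lower without. All 10 pan-leukocyte markers rose with TNBS in both genotypes, with a median of 0.94 in the knockout and 1.10 in wild type. Their summed linear signal was 7182 to 16533 in the knockout with TNBS and 4947 to 8813 without, and 16860 to 20158 in wild type with TNBS and 7555 to 10972 without. Between genotypes, 5 of 10 were lower in the knockout with TNBS (median -0.58) and 0 of 10 passed in limma without TNBS (median -0.50, 5 of 10 at an unadjusted p under 0.05). Of 10 macrophage markers, 6 rose with TNBS in the knockout and 8 in wild type, and 7 were lower in the knockout with TNBS and 0 without (7 of 10 at an unadjusted p under 0.05). T cell markers rose for 8 of 10 in the knockout and 9 in wild type, and 4 were lower in the knockout with TNBS and 0 without (5 of 10 at an unadjusted p under 0.05). Among 8 markers of NK and cytotoxic cells, 2 were lower and 1 higher in the knockout with TNBS and 2 were lower without, and their untreated sums did not overlap, at 322 to 399 in the knockout and 487 to 784 in wild type. Of 7 plasma cell markers, 3 were lower in the untreated knockout and 0 passed with TNBS (4 at an unadjusted p under 0.05 in limma). The part of these cells in the untreated genotype differences was not tested.

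Some markers of tissues other than leukocytes also moved. The summed signal of 10 colon epithelium markers was 98446 to 109625 in the knockout with TNBS and 107034 to 113878 without, and 103451 to 111629 in wild type with TNBS and 104909 to 110826 without. These ranges overlapped. With TNBS, 2 of the 10 fell in the knockout and 1 rose in wild type, where 4.47% of all genes fell and 10.2% rose. Between genotypes, 1 was lower in the knockout with TNBS and 1 was higher without, against 6.72% and 2.92% of all genes. Of 6 skeletal muscle markers, 3 were higher in the untreated knockout (median 3.41, 6 of 6 at an unadjusted p under 0.05 in limma). Over all genes, 2.92% were higher there. The untreated sums of these markers were 720 to 3591 in the knockout and 63 to 358 in wild type, which did not overlap. With TNBS, 0 of 6 passed in limma (median 2.13, 4 at an unadjusted p under 0.05), and the sums were 562 to 5778 in the knockout and 88 to 2979 in wild type. Whether skeletal muscle in the colons has a part in the genotype differences was not tested. Of 6 squamous epithelium markers, 1 rose with TNBS in the knockout (median 2.04), where 4.08% of all genes did. In wild type 2 rose (median 1.88), where 10.2% of all genes did. The squamous sums were 195 to 2394 in the knockout with TNBS and 42 to 703 without. In wild type they were 255 to 1353 with TNBS and 37 to 212 without. With the mean of these markers as a covariate in limma, the wild-type TNBS differences of Psmb8 (0.65 ± 0.23, adjusted p = 0.084) and Psmb9 (0.72 ± 0.24, adjusted p = 0.064) did not pass, and 9.24% of all genes were called.

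With the mean of the pan-leukocyte markers as a covariate in limma, the errors grew and the differences named here kept their direction. For TNBS in the knockout, Nlrc5 was 1.81 ± 0.48 (adjusted p = 0.11), Tap1 1.45 ± 0.41 (adjusted p = 0.14) and Psmb9 1.04 ± 0.29 (adjusted p = 0.13), and 0 of 8 genes (6 at an unadjusted p under 0.05) and 0.5% of all genes were called. For TNBS in wild type, Nlrc5 was 1.50 ± 0.52 (adjusted p = 0.19) and Tap1 1.20 ± 0.44 (adjusted p = 0.23), and 0 of 8 (5 at an unadjusted p under 0.05) and 1.19% of all genes were called. Between genotypes with TNBS, Tap2 was -0.92 ± 0.25 (adjusted p = 0.054), and 0 of 8 genes passed (5 at an unadjusted p under 0.05), where 3.1% of all genes did. Between untreated genotypes, Psmb8 (-0.89, adjusted p = 0.041), Psmb9 (-1.15, adjusted p = 0.015) and B2m (-0.25, adjusted p = 0.0081) passed, where 2.75% of all genes did. The part of leukocyte content in the TNBS differences and in the genotype difference with TNBS was not tested beyond these values.

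**Figure D4:**
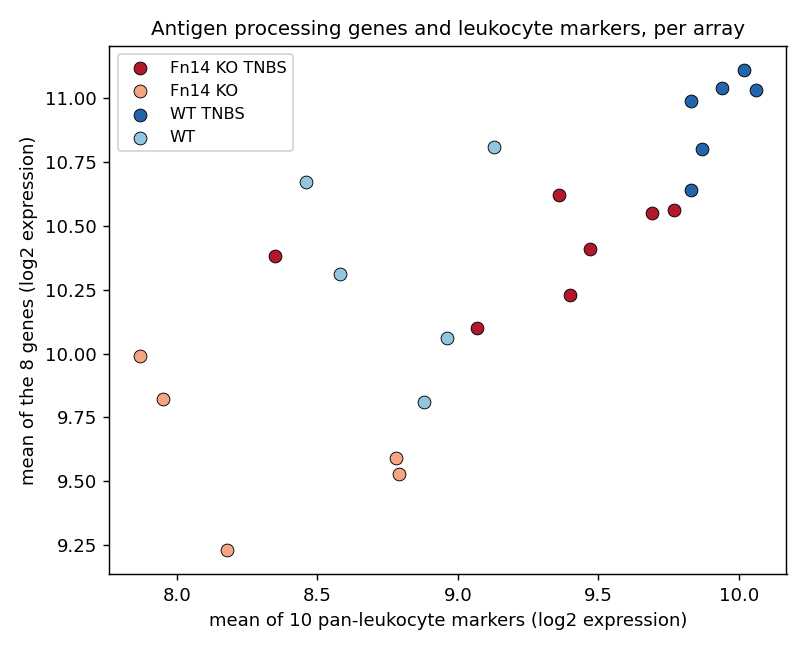
Mean log2 signal of the 8 genes (vertical axis) against the mean log2 signal of 10 pan-leukocyte markers (horizontal axis), with 1 point per array and colours for groups. Untreated knockout arrays reach lowest, at 9.23 to 9.99 for the 8 genes and 7.87 to 8.79 for the markers. Wild-type arrays with TNBS reach highest, at 10.64 to 11.11 and 9.83 to 10.06. Untreated wild-type arrays, at 9.81 to 10.81 and 8.46 to 9.13, overlap both groups for the 8 genes and the untreated knockout for the markers. Knockout arrays with TNBS, at 10.1 to 10.62 and 8.35 to 9.77, overlap the untreated knockout for the markers.

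A measure of RNA quality reached its lowest values in the knockout with TNBS. A lower value means that the 5' signal is closer to the 3' signal, not that the RNA is poorer. The Gapdh control signal at the 3' end minus that at the 5' end was 0.91 to 0.99 in the knockout with TNBS and 0.96 to 1.07 without, and 0.97 to 1.17 in wild type with TNBS and 1.00 to 1.10 without. With this measure as a covariate, the genotype differences with TNBS were -0.52 for Psmb8 (adjusted p = 0.28, limma), -0.69 for Psmb9 (adjusted p = 0.16) and -0.96 for Tap2 (adjusted p = 0.072), and 0 of 8 genes passed (3 at an unadjusted p under 0.05), where 4.06% of all genes did. Its part in those differences was not tested further. Another scaling also bears on small differences: centring each array on its median shifted the median of all genes by -0.17 for TNBS in wild type. B2m then stood at 0.16 for TNBS in the knockout and lost its call (adjusted p = 0.11), and at -0.17 in wild type (adjusted p = 0.027). Under that centring 11.2% of the genes called for TNBS in wild type were higher, against 62% as deposited, and the split moved likewise to 38.2% from 47.8% in the knockout, to 70.1% from 35.7% for knockout minus wild type with TNBS, and to 33.7% from 60.4% without. For the difference of TNBS effects it was 80.6%, against 31.1%. The calls of Nlrc5, Tap1, Psmb8 and Psmb9 for TNBS held in both genotypes under it.

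The targeted gene Tnfrsf12a lies on chromosome 17, as do 5 of the 8 genes, in the order Tapbp, Psmb9, Tap1, Psmb8 and Tap2 within the MHC region. Psmb10 and Nlrc5 lie on chromosome 8 and B2m on chromosome 2. Knockout minus wild type without TNBS was called for 9.43% of 53 measured genes within 500 kb of the 5 (3 higher and 2 lower). It was called for 6.31% of 776 other genes of chromosome 17 and for 4.75% of all 17198 genes on other chromosomes. Among those 17198 are 79 genes within 500 kb of Psmb10, Nlrc5 or B2m, of which 3.8% were called (2 higher and 1 lower). With TNBS, these shares were 28.3% (6 higher and 9 lower) near the 5 and 11.3% on the rest of chromosome 17. They were 20.3% (4 higher and 12 lower) near the other members and 10.4% of all genes on other chromosomes. Off chromosome 17, Psmb10 and B2m were lower in the untreated knockout and none of the 3 passed with TNBS. Whether linkage to the targeted gene has a part in the differences of the 5 was not tested.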

How the data were processed

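Colon RNA of 23 samples was measured on Affymetrix arrays. The authors deposited log2 values for 45101 probe sets, and per the submitters' processing notes RMA and GCRMA were used; which of them gave these values is not stated there. Deposited log2 values ran from 2.17 to 15.98, with 27.9% at the lowest, so differences of dim genes are understated. The number of arrays limits the precision. The platform annotation named 1 gene for 34958 probe sets, several for 932 and none for 9211; 34754 matched RefSeq symbols (GRCm38.p6), and each of 18194 genes was given by its brightest single-gene probe set.

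Groups came from the titles. limma (lmFit, eBayes, 1 mean per group, 19 residual and 0.475 prior degrees of freedom) was fitted to all arrays and genes, with Benjamini-Hochberg adjustment at 0.05. Subunit pairs were tested by exact permutation (two-sided), with adjustment over 12 tests. Procedures were tested on simulated data. The 8 genes and all lists were chosen with earlier results of these data known. Named genes were the 8 genes, the constitutive subunits, Tnfrsf12a, up to 4 genes of a list and contrast with the smallest p, and the 8 genes most like the members, with no p for lists or correlations; Erap1, Calr, Canx, Pdia3, Irf1 and Ifng were named after their values were seen.

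Same-numbered arrays of different groups were not treated as pairs in the main fit. After group means were removed, 31 such pairs of arrays correlated at -0.46 to 0.43. Their median was 0.03, beside 0 for other pairs, and 10 of the 31 were above 0.1. Pairing between particular groups cannot be told from these values. With the replicate block, Psmb10 lost its untreated genotype call (-0.35, limma adjusted p = 0.062). Alternatives were other spread and weighting options, scalings, probe-set rules, filters, covariates, the replicate block and leaving out each array. Analyses used R 4.3.3, limma 3.58.1, Python 3.11.15 and matplotlib 3.10.9.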

Additional observations from a re-analysis of the deposited data

Results flagged for a closer look

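Tap2 in knockout colons with TNBS had 1 array far from the rest: replicate 2 stood at 6.10, with the next array at 6.76 and the highest of the 7 at 7.23. In 32 combinations of gene and group, the gap at the lowest or highest array was set against the range of that group. Replicate 2 was the only array marked, and chance alone marks about 1 in 20. It was not alone in standing apart. In untreated knockout colons, Tap2 replicate 5 stood at 5.86, with the next array at 6.44 and the highest at 6.82. That gap was about as wide for its range and was not marked. The Tap2 difference between genotypes with TNBS kept its call when each array was left out in turn.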

How the results depend on the processing

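Of 1104 values of single members under alternatives, 1021 kept their side of the threshold, 67 lost a call and 16 gained one. No value changed sign where it was called in the main fit or in the alternative. Values called in neither could change sign and count as kept, such as Tapbp for TNBS in wild type, at -0.25 to 0.13. Nlrc5 lost its TNBS calls only with the leukocyte covariate, and B2m kept its untreated genotype call in all 24 alternatives. Members called for TNBS in wild type numbered 4, and 1 with only the 2 groups compared, 2 with every probe set, 0 with the leukocyte and 2 with the squamous covariate. For TNBS in the knockout, 6 became 0 with the leukocyte covariate. Between untreated genotypes, 5 became 1 (B2m) with only the 2 groups, where Psmb8 (-0.85), Psmb9 (-1.13), Psmb10 (-0.35) and Tap2 (-0.96) kept their log2 differences to 2 decimals and lost their calls, and 3 with the leukocyte covariate. Between genotypes with TNBS, 3 became 5 with array weights and 0 with the Gapdh or the leukocyte covariate. For the difference of TNBS effects, 0 became 1 (B2m) with the mean of probe sets, every probe set or median centring. Leaving out each array gave 1 to 4 members for TNBS in wild type (1 without wild-type replicate 1 or 2, and 2 without wild-type replicate 4 or wild-type TNBS replicate 1, 2, 3 or 5), 2 to 7 between untreated genotypes (2 without wild-type replicate 5, 3 without wild-type replicate 3 or knockout replicate 5) and 0 to 1 for the difference of TNBS effects (1 without wild-type replicate 2). The second probe sets of Psmb8 and Tap1 lie at the floor and carry no information. With every probe set tested, the counts read these 2 genes from floor-level probe sets. Their brightest probe sets still passed for TNBS in wild type in that fit (limma adjusted p = 0.035 for Psmb8 and 0.026 for Tap1). Other causes were not tested.

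For the pairs, Psmb8 minus Psmb5 with the mean of probe sets was 0.25 for TNBS in wild type and -0.21 between genotypes with TNBS, and neither passed. That mean includes the second probe set of Psmb8, which lies at the floor, so the Psmb8 change is smaller there by construction. Under the replicate block no subunit pair could pass, since flipping the signs of so few same-numbered differences cannot reach an adjusted p under 0.05. The loss of these calls therefore says nothing about the changes. Psmb8 minus Psmb5 was then 0.86 for TNBS in the knockout, 0.66 in wild type, -0.51 between genotypes with TNBS and -0.86 without. Psmb9 minus Psmb6 was 0.89, 0.67, -0.85 and -1.22 in that order, and Psmb10 minus Psmb7 was 0.30 for TNBS in the knockout, -0.29 with TNBS and -0.42 without. Leaving out each array gave 0.44 to 0.67 for Psmb8 minus Psmb5 and 0.47 to 0.68 for Psmb9 minus Psmb6 for TNBS in wild type, and for Psmb10 minus Psmb7 0.28 to 0.43 in the knockout and 0.15 to 0.24 in wild type.

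Counts over all genes moved by over 1.5 times as follows. For TNBS in the knockout, 1556 genes became 856 with only the 2 groups, 813 with the Gapdh, 91 with the leukocyte and 737 with the squamous covariate, and 1014 without knockout replicate 3. For TNBS in wild type, 2998 became 4682 with every probe set, 11471 with median centring, 216 with the leukocyte and 1681 with the squamous covariate. Between genotypes with TNBS, 1902 became 3345 with every probe set, 1230 with the replicate block, 738 with the Gapdh and 564 with the leukocyte covariate. Between untreated genotypes, 879 became 288 with only the 2 groups, 500 with the leukocyte covariate, 458 without wild-type replicate 1 and 484 without knockout replicate 4. For the difference of TNBS effects, 363 became 547 with median centring, 172 with the replicate block, 238 without wild-type replicate 1 and 213 without knockout replicate 4.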
